A study of Mus musculus with 24 samples.

Results

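Set 3D holds 6 of the 24 libraries of the series and was chosen by its labels: 3 libraries in which all capped RNA was captured and 3 in which only RNA with a non-canonical cap was captured. CompasSeq, the assay, compares these 2 kinds of library to estimate what percentage of the capped transcripts of a gene carries a metabolite cap. The RNA of all 6 libraries was polyadenylated RNA from the liver of C57BL/6 males, aged 2 months. The labels name no treatment and no engineered allele in any group. They do not say whether a library came from 1 animal or from a pool, or whether same-numbered libraries share an animal, so p-values measure only the spread between these libraries. In the series design, 20 µg of liver RNA was mixed with 0.014 ng of synthetic spike-in RNA whose NAD-capped share was 0, 1, 5, 10 or 20%. No other set counted all 5 of these shares, so the ratio of each mouse gene was read on the spike-in line of this set. Of the 20466 mouse genes with at least 1 count, 10822 had enough counts to be tested.

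Most RNAs made by RNA polymerase II receive an m7G cap soon after synthesis starts, and this cap protects the transcript and recruits the translation machinery. Some transcripts instead begin with a metabolite that contains an adenosine, such as NAD or dephospho-coenzyme A, which the polymerase takes up as the first nucleotide in place of ATP. Such a beginning is called a non-canonical initiating nucleotide (NCIN) cap. Enzymes of the DXO and Nudix families, DXO and NUDT12 among them, remove NAD caps. Liver is rich in NAD and expresses genes for its synthesis from tryptophan, nicotinic acid and nicotinamide.

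Because an NCIN cap of this kind needs an A as first base, the annotated starts of 5 genes with low and 5 with high estimated NCIN shares are shown, with the first transcribed base in capitals between 15 bases of promoter and 14 bases of the first exon. The sequences are those of RefSeq on GRCm38.p6, read 5′ to 3′ on the strand of the gene. The low genes lie at Alb (chr5:90460855-90460884, plus strand), Apoa1 (chr9:46228615-46228644, plus strand), Tpt1 (chr14:75845241-75845270, plus strand), Rpl35 (chr2:39005117-39005146, minus strand) and Rps27 (chr3:90213634-90213663, minus strand). The high genes lie at Insig1 (chr5:28071397-28071426, plus strand), Gsk3b (chr16:38088986-38089015, plus strand), Amt (chr9:108296890-108296919, plus strand), Prpf8 (chr11:75486762-75486791, plus strand) and Eif4g1 (chr16:20672712-20672741, plus strand). The 10 were taken from the genes named by rule, so that both groups show starts with A and with other bases.
Alb: attggttaaagaagtAtattagagcgagtc
Apoa1: aaagtaagcagtggcAgggccaggctgagc
Tpt1: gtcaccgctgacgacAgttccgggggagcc
Rpl35: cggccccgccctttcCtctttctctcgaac
Rps27: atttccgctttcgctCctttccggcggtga
Insig1: agtgtcgtggcgtgtAccttccatgctgtg
Gsk3b: atcaccgagaaaggtAcacgcccagcggag
Amt: cttcagtgtgacttcAgtgtgccggccgca
Prpf8: atctcggcgtctattGgatgagcttctgag
Eif4g1: cgccagcgcagctccGccctctgcgccggt

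The 10 printed genes were chosen to show starts with A in both groups, so they do not tell how common such starts are. Albumin, apolipoprotein A1 and Tpt1 each start with A, as do Insig1, Gsk3b and Amt, while Prpf8 and Eif4g1 start with G. Among the 8174 of 10107 tested protein-coding genes with a RefSeq start (80.9%), the 1946 with A at every start had a median estimated NCIN share of 9.81%. The 5442 with A at no start had a median of 12.9%. The 786 with A at some starts had the highest median, 14.8%. A high estimate in all 3 libraries was found for 25.6%, 29.1% and 31.4% of these groups. Among genes of like length, A at every start also lay below A at no start. The medians were 3.52% against 4.84% for short, 9.80% against 12.3% for medium and 31.6% against 34.5% for long genes. Genes with a single start did not place A lowest, at 9.77% with A, 11.1% with C, 13.1% with G and 9.12% with T. Over all 32851 starts in the table, 34.4% have an A. These are annotated starts, and the starts used in these livers were not measured. The letters TATAAA, searched on the strand of the gene from 40 to 15 bases before the start, stood before 130 of these genes, whose median was 7.26%, against 12.5% in the others; their median span was also shorter, at 11046 against 22684 bases. They stand before 1.99% of all starts in the table. A C start followed by 4 bases that are each C or T, a form typical of ribosomal protein genes, was found in 248 genes with a median of 11%, against 12.3% in the others, and in 2.51% of all starts.

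All-capped libraries held 13519560 to 14608070 mouse counts and captured libraries 6964907 to 9133322. Fruit fly genes took 7.87 to 10.1% of the counts of all-capped libraries and 45.6 to 55.4% of those of captured libraries; the labels do not say where the fly RNA came from. Mitochondrially encoded genes took 0.597 to 0.709% of the mouse counts of all-capped libraries and 7.05 to 8.75% of those of captured libraries. The liver label was checked against 8 hepatocyte markers, all of which were counted, and their summed level was 107546 to 113890.0 counts per 1000000 mouse counts (CPM) in all-capped libraries. Of these markers, 6 were in the low and 2 in the high class defined below.

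The spike-ins tie the captured signal to a known NAD share. For each captured library, a ratio was formed as the spike-in's share of the mouse counts over the mean share in the 3 all-capped libraries. A straight line through the 5 ratios rose by 0.109, 0.130 and 0.140 per percentage point in captured replicates 1, 2 and 3 (0.127 ± 0.0157, SD, n = 3). The intercepts were 0.118, 0.213 and 0.354. The line thus started lowest and rose least in captured replicate 1. A ratio of 1, where a transcript takes the same share of mouse counts in both kinds of library, corresponded to 6.24% ± 1.73, and a ratio of 0 to -1.75% ± 0.732 (SD, n = 3).

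**Figure D1:**
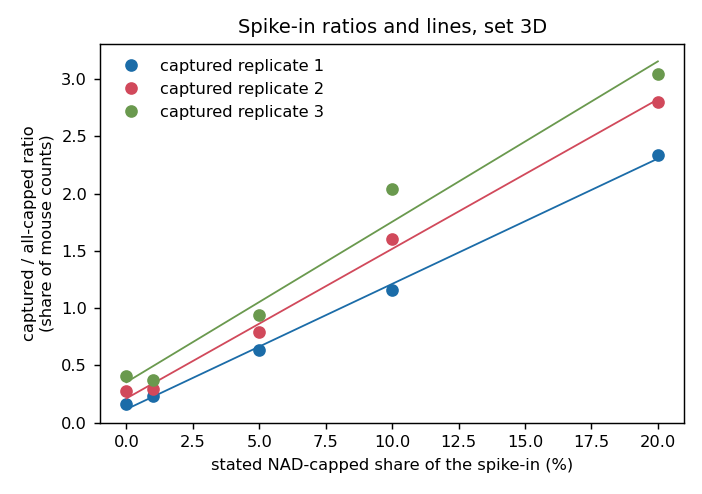
Ratio of the share of mouse counts in each captured library to the mean of the 3 all-capped libraries (y axis, no unit) against the stated NAD-capped share of 5 spike-ins (x axis, percent), with 1 straight line per captured library. The lines rise by 0.109, 0.130 and 0.140 per percentage point, and the points at 0 and 1% lie close together in all 3 libraries.

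Each spike-in was also read on a line fitted without it. The 5% spike-in then read 4.29% ± 0.323, the 10% spike-in 11% ± 1.67 and the 20% spike-in 19.1% ± 2.62 (SD, n = 3). Readings of the 0% and 1% spike-ins overlapped within 1 SD, at 0.677% ± 0.0758 and 0.373% ± 0.737. The captured counts behind them ran from 311 to 606 for the 0% spike-in and from 277 to 335 for the 1% spike-in. Because their readings overlap, estimates near 1% are not distinguishable from 0. Estimates above 20% are extrapolations beyond the highest spike-in. The estimate assumes that mouse RNA and spike-ins are captured alike, which was not tested. It does not depend on how captured libraries are scaled against each other, since genes and spike-ins scale together, whereas the direction of a fold change does.

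Reading every gene on its library's line gave a median estimated NCIN share of 14.3% in captured replicate 1, 11.5% in replicate 2 and 8.81% in replicate 3 (11.5% ± 2.72, SD, n = 3). Replicate 1 gave the highest of the 3 estimates for 68.1% of the genes. Weighted by each gene's share of the all-capped counts, the mean was 6.22% ± 1.72, below the median of genes. By the definition of the ratio, this weighted mean must lie close to the reading at a ratio of 1, 6.24% ± 1.73. It therefore restates the spike-in line and is not a separate result. The most counted transcripts had low estimates, as the classes below show. An estimate was had for 10814 genes; the other 8 had no count in all-capped libraries. Of these genes, 8908 (82.4%) lay above the 0% spike-in in every captured library and 330 (3.05%) below it in every one. In all 3 captured libraries, 3123 genes (28.9%) lay above the 20% spike-in. The estimate was over 100%, which no share can reach, for 296 genes in all 3 libraries and for 908 (8.40%) on the mean.

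**Figure D2:**
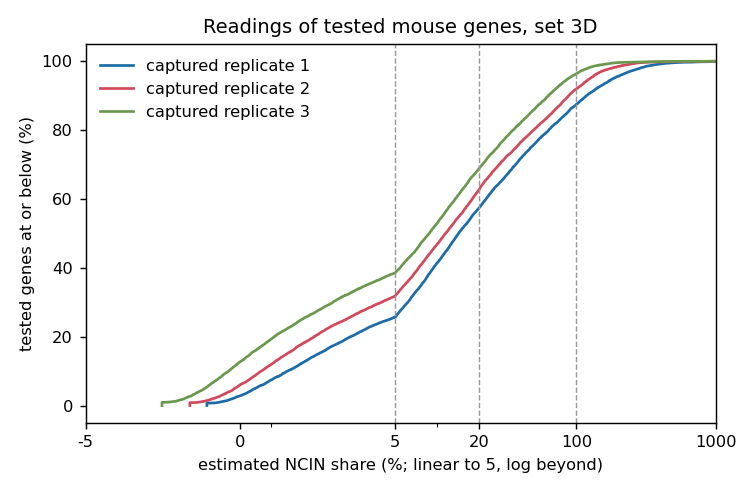
Cumulative percentage of the 10814 tested mouse genes (y axis) at or below an estimated NCIN share (x axis, percent, linear to 5 and logarithmic beyond), 1 line per captured library. Dashed lines mark 5, 20 and 100%; the lines for replicates 1, 2 and 3 keep their order, with medians of 14.3, 11.5 and 8.81%.

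Genes were sorted into a low class (under 5% in all 3 captured libraries), a middle class (5 to 20% in all 3) and a high class (over 20% in all 3). The low class held 2393 genes (22.1%), the middle class 1539 (14.2%) and the high class 3069 (28.4%). The remaining 3813 genes (35.3%) crossed a limit between libraries and were not separated. Median estimates were 1.05% ± 0.926, 10.2% ± 1.49 and 67.6% ± 18.4 (SD, n = 3) in the low, middle and high class. Low genes were the abundant ones: they took 68.8% ± 0.467 of the mouse counts of all-capped libraries and 26.4% ± 2.80 of those of captured libraries. High genes took 3.62% ± 0.235 and 35.4% ± 3.36. The median level in all-capped libraries was 27.1 CPM for low genes, 14.9 for middle genes and 1.78 for high genes.

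The minimum level for testing bears on these counts. Of the tested genes, 1801 passed it through the captured libraries only, and 1322 of those were in the high class; 705 passed through the all-capped libraries only, 449 of them in the low class. Of the 1801, 0 were low, 64 were middle and 407 were not separated. Of the 705, 0 were middle, 0 were high and 256 were not separated. Passing in this way thus favours that side, and no such gene was in the opposite class. The size of the high class depends in part on this selection. Among the 4880 genes with a mean of at least 100 counts in all-capped libraries, 36.7% were low, 21.8% middle, 12.4% high and 29.2% not separated. Near the limits, Tmem150a, Wdr74 and Timm17b had mean estimates of 4.94, 4.95 and 4.99%, and Phyh, Cyp4a12b and Smim7 of 5.01, 5.02 and 5.04%. All 6 of these crossed 5% between libraries. Around 20%, Slco2b1, Zfp706 and Pcx had 19.8, 19.8 and 20.0%, and Dstn, Dcaf8 and C8a 20.0, 20.0 and 20.1%.

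Captured and all-capped libraries were also compared gene by gene with edgeR. Of 10822 genes, 3842 (35.5%) were higher in captured libraries and 3406 (31.5%) in all-capped libraries (called lower from here on), so a gene list with near these shares does not stand out. The direction is relative to the scaling, which here set the trimmed mean of all genes as equal (TMM). Scaled to the 0% spike-in, 8382 genes were higher and 101 lower, and scaled to the fly genes, 126 were higher and 7935 lower. Over the tested genes, the log2 fold change had a median of 0.11 with TMM, 2.79 with the 0% spike-in and -2.66 with the fly genes. The gene groups below are therefore described first by their estimates and classes. Estimated shares and the calls come from the same counts, so they are not independent of each other.

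Mitochondrially encoded transcripts had the highest estimates of the gene groups examined. They are made inside the organelle by a separate polymerase and do not receive an m7G cap. Of 37 such genes, 21 were tested, all 21 were in the high class, and their median was 108% ± 13.1 (SD, n = 3), against 11.5% over all tested genes. Of the 21, 9 reached the minimum level for testing in captured libraries only, which favours a high estimate. The other 12 reached it in both kinds of library. By edgeR all 21 were higher, as they were when scaled to the 0% spike-in, but 3 were higher and 1 lower when scaled to the fly genes. The mRNA of mt-Co1, a catalytic subunit of cytochrome c oxidase, stood at 1227, 1730.1 and 1327 CPM in all-capped replicates 1 to 3. In captured replicates 1 to 3 it stood at 19065, 23759 and 21709 CPM, with no overlap between the groups (log2 fold change 3.24, standard error 0.19, edgeR adjusted p = 4.35e-07). The estimates for mt-Co1 were 121, 126 and 106%. The complex I subunit mt-Nd1 had 845, 919 and 1105 CPM in all-capped and 8085, 7805 and 13940.5 CPM in captured libraries (log2 fold change 2.71, standard error 0.26, edgeR adjusted p = 1.02e-05). Its fold change turned to -0.11, with an adjusted p of 0.682, when libraries were scaled to the fly genes. Its estimates, 76.2, 60.9 and 102%, show how far the captured libraries can differ for 1 gene.

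The mitochondrial genes differed among themselves. The lowest mean estimate was that of mt-Nd4, at 52.4% ± 14.3 (SD, n = 3). The highest was that of mt-Tq, the glutamine tRNA, at 463% ± 248. Since mt-Tq had a mean of fewer than 100 counts in all-capped libraries, its estimate rests on a small denominator. Among members with at least 100 such counts, mt-Rnr1 was the highest, followed by mt-Nd5 at 131% ± 73.7. The ribosomal RNAs mt-Rnr1 and mt-Rnr2 had 181% ± 50.4 and 129% ± 42.5. Complex I subunit mt-Nd6 is encoded on the other strand from the remaining complex I genes and had 295, 387 and 276 CPM in all-capped and 4046, 1538 and 4724 in captured libraries, where replicate 2 was the lowest. That replicate was also the lowest captured library for mt-Nd5, at 15664, 4937 and 15411 CPM in captured replicates 1 to 3. Mitochondrial genes abut or overlap one another and the use of strand in counting is not given in the sources used here, so reads of neighbours may be shared. With at least 10 counts in every library required, 13 of these genes were tested and higher, and their median was 94.5%.

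Genes for proteins of the cytosolic ribosome lay at the other end. Of 84 tested, 79 fell in the low class, 1 in the middle class and 0 in the high class, and 4 were not separated. Their median estimate was -0.275% ± 0.786 (SD, n = 3), and edgeR called 0 higher and 82 lower with TMM scaling, and 11 higher and 23 lower with scaling to the 0% spike-in. The lowest estimates belonged to Rpl23a at -1.44% ± 0.855 and Rpl35 at -1.31% ± 0.706, whose annotated start is printed above with a C as first base. Rpl35 had 169, 169 and 184 CPM in all-capped and 8.54, 8.12 and 11.9 CPM in captured libraries. These groups do not overlap. Rps27 was as low, with 273, 302 and 264 CPM in all-capped and 16.9, 18.0 and 18.1 CPM in captured libraries. Rps28, at 9.23% ± 2.30, was the only member in the middle class. Rps25 was the most variable member, with estimates of 23.5, 11.5 and 5.20% in captured replicates 1 to 3. Ribosomal protein genes have many near-identical pseudogenes, so single values carry that uncertainty.

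The factors that work with the ribosome spread over all classes. Of 36 elongation and initiation factors, 13 fell in the low class, 7 in the middle class and 4 in the high class, and 12 were not separated, with a median of 5.00% ± 2.59 (SD, n = 3). Eef1a1, which brings aminoacyl-tRNA to the ribosome, had 6027, 5587 and 5488 CPM in all-capped and 1191, 1348 and 1331 CPM in captured libraries (log2 fold change -2.81, standard error 0.14, edgeR adjusted p = 2.73e-07). Its estimates were 0.831, 0.182 and -0.861%, around the 0% spike-in, and its fold change was -0.16 with an adjusted p of 0.738 when scaled to that spike-in. Tpt1, an abundant translation-associated protein, was as low, at -0.365% ± 0.967. The scaffold Eif4g1, which links the cap-binding complex to the small subunit, lay far above them at 58.7% ± 5.91, with 38, 37.2 and 35.5 CPM in all-capped and 262, 297 and 283 CPM in captured libraries. Other factors in the high class were Eif3b at 67.2% ± 6.29, Eif4g2 at 51.2% ± 12.7 and the poly(A)-binding protein Pabpc1 at 50.8% ± 13.4. By edgeR 8 factors were higher and 20 lower, while scaled to the 0% spike-in 25 were higher and 0 lower. The count of 8 was 5 without all-capped replicate 2 and 5 without all-capped replicate 3.

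Nuclear genes for mitochondrial proteins did not share the high estimates of the mitochondrial genome. Among 78 nuclear genes of the respiratory chain, 63 fell in the low class, 3 in the middle class and 0 in the high class, and 12 were not separated, and the median was 1.11% ± 1.11 (SD, n = 3). Of these genes, edgeR called 1 higher and 72 lower with TMM scaling, and 22 higher and 1 lower with scaling to the 0% spike-in. Cox6c, a subunit of cytochrome c oxidase like mt-Co1, had 209.8, 174 and 155 CPM in all-capped and 63.2, 44.1 and 39.9 CPM in captured libraries (log2 fold change -2.54, standard error 0.21, edgeR adjusted p = 2.93e-06), a direction that turned to 0.24, with an adjusted p of 0.668, when scaled to the 0% spike-in. Its estimates were 2.14, 0.254 and -0.940%, against 121, 126 and 106% for mt-Co1. Highest in the list were Sdha, which holds the flavin of complex II, at 22.4% ± 5.48 and Ndufs1 of complex I at 15% ± 11.5, and lowest the small subunits Uqcrh at -0.987% ± 0.756 and Atp5j2 at -0.815% ± 0.973. Of 77 mitochondrial ribosomal proteins, 45 fell in the low class, 10 in the middle class and 0 in the high class, and 22 were not separated. Their median was 2.25% ± 1.5, from -1.20% ± 0.624 for Mrps34 to 17.6% ± 3.59 for Mrpl16, and edgeR called 1 higher and 64 lower with TMM scaling, and 35 higher and 1 lower with scaling to the 0% spike-in.

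Other housekeeping complexes had low to middle medians. Of 37 proteasome subunits, 20 fell in the low class, 5 in the middle class and 0 in the high class, and 12 were not separated, with a median of 2.87% ± 1.25 (SD, n = 3). The immunoproteasome subunits Psmb9 and Psmb10 were lowest, at -0.640% ± 0.702 and -0.265% ± 0.836, and the large regulatory subunits Psmd1 and Psmd2 highest, at 17.5% ± 7.43 and 21.0% ± 4.77. Among 30 core proteins of the spliceosome, 11 fell in the low class, 5 in the middle class and 4 in the high class, and 10 were not separated, with a median of 5.57% ± 2.29. Snrpd3, a protein of the Sm ring, was in the low class, at 0.201% ± 1.17. Prpf8, the large protein at the spliceosome's active site, had 7.66, 10.6 and 10.5 CPM in all-capped and 92.5, 139 and 130.2 CPM in captured libraries, without overlap. Its estimate of 96.9% ± 11.2 and those of Snrnp200 at 77.5% ± 5.04 and Eftud2 at 49.3% ± 11.9 were the highest of that list.

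**Figure D3:**
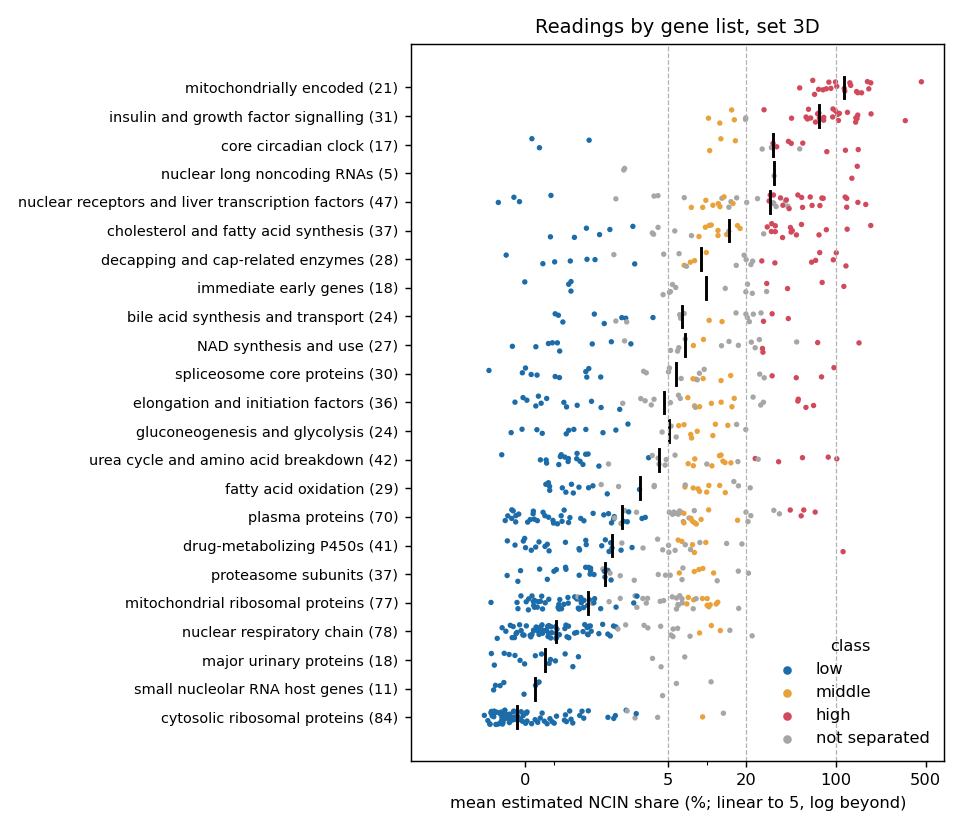
Mean estimated NCIN share over 3 captured libraries (x axis, percent, linear to 5 and logarithmic beyond) of each tested gene in 23 gene lists (y axis, number tested in parentheses), coloured by class, with a bar at the list median. All 21 mitochondrially encoded genes are in the high class, and 79 of the 84 ribosomal protein genes are in the low class.

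Transcripts of secreted hepatocyte proteins were mostly low. Of 70 plasma protein genes, 38 fell in the low class, 9 in the middle class and 4 in the high class, and 19 were not separated. The median was 3.32% ± 1.19 (SD, n = 3), and edgeR called 9 higher and 55 lower with TMM scaling, and 44 higher and 1 lower with scaling to the 0% spike-in. Albumin, the main plasma protein and the most abundant liver mRNA here, had 54432, 45626 and 43374 CPM in all-capped and 27664, 26698 and 29359.9 CPM in captured libraries (log2 fold change -1.44, standard error 0.16, edgeR adjusted p = 2.63e-05); scaled to the 0% spike-in the fold change was 1.22 with an adjusted p of 0.0151. Its estimates were 4.21, 2.65 and 1.86%. The lipoprotein gene Apoa1 had 21672, 24238 and 22479 CPM in all-capped and 3447, 4349 and 4447 CPM in captured libraries, and estimates of 0.303, -0.168 and -1.14%. Transthyretin, a thyroid hormone carrier, had estimates of -0.147, -0.516 and -1.46%. Like Apoa1 it lay around or under the 0% spike-in in all 3 libraries.

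A minority of plasma protein genes were high. They encode very large proteins: apolipoprotein B at 56.4% ± 44.6, coagulation factor V at 69.2% ± 23.7, complement C3 at 53.9% ± 6.87 and the protease inhibitor Pzp at 44.3% ± 7.14 (SD, n = 3). F5 had 42.8, 44.3 and 37.1 CPM in all-capped and 413, 409 and 267 CPM in captured libraries, and these do not overlap. Apob was the least even of them, with 208, 101 and 57.6 CPM in captured replicates 1 to 3. Of 18 tested major urinary protein genes, which encode pheromone carriers secreted by male liver, 15 fell in the low class, 0 in the middle class and 0 in the high class, and 3 were not separated. Their median was 0.651% ± 1.74, with Mup3 at 6452, 4755 and 3722 CPM in all-capped and 1582, 1363 and 1339 CPM in captured libraries. These genes are near-identical copies, so their single values are uncertain.

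The drug-metabolizing cytochromes P450 followed the same pattern. Of 41 tested, 23 fell in the low class, 5 in the middle class and 1 in the high class, and 12 were not separated, with a median of 3.12% ± 0.914 (SD, n = 3), and edgeR called 2 higher and 33 lower with TMM scaling, and 25 higher and 0 lower with scaling to the 0% spike-in. Cyp2e1, which oxidizes ethanol, had 25006, 28328 and 26574 CPM in all-capped and 11318, 15508 and 18267 CPM in captured libraries, with estimates of 2.81, 2.83 and 2.37%. One gene stood out. Cyp2u1, a fatty acid hydroxylase, had 207, 322 and 215 CPM in all-capped and 3585, 3918 and 3279 CPM in captured libraries, an estimate of 114% ± 20.1. The next highest in the list, Cyp4v3, had 18.7% ± 5.47. Among 24 genes of bile acid synthesis and transport, 8 fell in the low class, 2 in the middle class and 3 in the high class, and 11 were not separated, with a median of 7.35% ± 3.93. The synthetic enzymes Cyp7b1, Cyp8b1 and Cyp27a1 were low, at 1.04% ± 1.03, 1.31% ± 0.491 and 2.41% ± 0.622. The canalicular and basolateral ABC transporters Abcb4, Abcc3 and Abcc2 were high, at 42.8% ± 10.1, 32.0% ± 6.28 and 27.4% ± 5.19. Cyp7a1, the rate-limiting enzyme of bile acid synthesis, was not separated, at 20.6% ± 16.4. Of these genes, edgeR called 5 higher and 12 lower with TMM scaling, and 21 higher and 0 lower with scaling to the 0% spike-in. With same-numbered libraries treated as pairs, 9 were higher.

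In amino acid metabolism a few enzymes stood far above the others. Of 42 genes, 18 fell in the low class, 9 in the middle class and 5 in the high class, and 10 were not separated, with a median of 4.69% ± 0.702 (SD, n = 3). Cps1, which makes carbamoyl phosphate in the first step of the urea cycle, had 249, 268 and 318 CPM in all-capped and 1725, 1974 and 2319.9 CPM in captured libraries (log2 fold change 2.18, standard error 0.18, edgeR adjusted p = 3.80e-06), a direction that turned to -0.62, with an adjusted p of 0.0108, when scaled to the fly genes. Its estimates of 55.6, 52.7 and 57.0% were nearly the same in all 3 captured libraries. Other enzymes of the cycle were lower, with Otc at 2.91% ± 2.30, Ass1 at 15.3% ± 3.97, Asl at 9.95% ± 4.98 and Arg1 at 2.57% ± 1.40. Uroc1, of histidine breakdown, and Gldc, of the glycine cleavage system, were high, at 102% ± 38.2 and 87.4% ± 7.54. Bckdha, of branched-chain amino acid breakdown, was the lowest, at -0.829% ± 0.758. Of these genes, edgeR called 7 higher and 27 lower with TMM scaling, and 27 higher and 1 lower with scaling to the 0% spike-in.

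Glucose metabolism and fatty acid oxidation had no gene in the high class. Of 24 genes of gluconeogenesis and glycolysis, 11 fell in the low class, 8 in the middle class and 0 in the high class, and 5 were not separated, and of 29 genes of fatty acid oxidation, 13 fell in the low class, 8 in the middle class and 0 in the high class, and 8 were not separated. The medians were 4.91% ± 1.16 and 3.77% ± 1.80 (SD, n = 3). Tpi1 and Fbp1 lay around the 0% spike-in, at -0.500% ± 0.604 and -0.120% ± 0.725. The glucose-releasing enzyme G6pc reached 17.0% ± 4.98 and pyruvate carboxylase, Pcx, 20.0% ± 2.52. Gapdh was in the middle class with little spread, at 8.38% ± 0.164. For fatty acid oxidation the lowest was Acadvl at 0.714% ± 1.07 and the highest Cpt1a, the carnitine transferase that controls entry into mitochondria, at 21.6% ± 3.05. By edgeR 1 gene of glucose metabolism was higher and 17 lower, but 16 were higher and 0 lower when scaled to the 0% spike-in; with same-numbered libraries treated as pairs, or without captured replicate 1, 3 were higher. Of the oxidation genes 3 were higher and 19 lower, and 18 were higher and 0 lower when scaled to the 0% spike-in. The count of 3 was 1 without all-capped replicate 2 and 1 without all-capped replicate 3.

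Lipid synthesis had a higher median than lipid oxidation, a difference that was not tested. Among 37 genes of cholesterol and fatty acid synthesis, 6 fell in the low class, 9 in the middle class and 15 in the high class, and 7 were not separated. The median was 15.8% ± 2.05 (SD, n = 3), and edgeR called 18 higher and 9 lower with TMM scaling, and 1 higher and 31 lower with scaling to the fly genes. Low members included Ebp, of sterol synthesis, at 0.874% ± 0.686 and Pmvk, of the mevalonate pathway, at 2.13% ± 2.14. High members included acetyl-CoA carboxylase Acaca at 123% ± 22.7, fatty acid synthase Fasn at 74.1% ± 29.5 and Gpam, which starts glycerolipid synthesis, at 84.5% ± 12.4. Insig1, the ER protein that holds back SREBP processing, was the highest of the list. It had 51.0, 120.5 and 79.5 CPM in all-capped and 2007, 2147 and 1765 CPM in captured libraries, without overlap, and estimates of 218, 195 and 148%, which exceed what a share can be. The related Insig2 had 7.56% ± 7.99.

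Genes of NAD metabolism were examined because NAD is the cap of the spike-ins and one of the NCIN caps that could be captured. Of 27 tested, 9 fell in the low class, 2 in the middle class and 4 in the high class, and 12 were not separated. The median was 6.87% ± 1.61 (SD, n = 3), and edgeR called 7 higher and 12 lower with TMM scaling, and 21 higher and 0 lower with scaling to the 0% spike-in. Nampt, which recycles nicotinamide, had 12.1, 8.15 and 7.17 CPM in all-capped and 21.8, 17.3 and 9.91 CPM in captured libraries, and the groups overlap (log2 fold change 0.17, standard error 0.32, edgeR adjusted p = 0.647). Its fold change was -2.57, with an adjusted p of 3.00e-04, when scaled to the fly genes and 2.96, with 4.26e-04, when scaled to the 0% spike-in, and it was -0.092 without captured replicate 1, so no direction can be given. The nicotinamide methyltransferase Nnmt was low and even, at 1.33, 1.02 and 1.25%. So were Haao and Qprt, of NAD synthesis from tryptophan, at 0.365% ± 0.632 and 0.944% ± 0.506. The NAD kinases Nadk and Nadk2, which make NADP, were high, at 26.9% ± 1.74 and 72.4% ± 33.1. Among the NAD-dependent sirtuins, Sirt3 and Sirt4 were low, at 1.12% ± 0.873 and -0.457% ± 1.46, and Sirt6 high, at 152% ± 60.5.

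Genes for enzymes that remove or make caps fell into the classes in much the same shares as all tested genes. Of 28 tested, 7 fell in the low class, 4 in the middle class and 8 in the high class, and 9 were not separated, with a median of 9.84% ± 4.69 (SD, n = 3) and 9 higher and 10 lower by edgeR, while scaled to the fly genes 0 were higher and 22 lower. Of the 28, 6 reached the minimum level in captured libraries only, 4 of them in the high class. Dxo, whose product removes NAD caps, had 32.4, 33.3 and 27.9 CPM in all-capped and 29.2, 31.0 and 31.6 CPM in captured libraries, which overlap. With TMM scaling Dxo was called lower (log2 fold change -0.70, standard error 0.17, edgeR adjusted p = 0.0039). Its estimates were 7.49, 5.98 and 4.70%. Nudt12, another NAD decapping enzyme, was counted at only 3.57, 1.64 and 1.33 CPM in all-capped libraries, and its estimates of 34.2, 19.7 and 6.4% crossed both class limits. The m7G decapping genes Dcp1a and Edc4 were high, at 75.1% ± 28.8 and 64.9% ± 13.0, as was the exonuclease Xrn1 at 120.1% ± 59.5. The methyltransferase Rnmt and the capping enzyme Rngtt, which make the m7G cap, were not separated, at 16.9% ± 10.4 and 6.91% ± 9.26. Of the genes for coenzyme A synthesis, Coasy and Pank1 were in the middle class, at 7.41% ± 1.18 and 9.86% ± 4.33. Pank2 and Pank3, with a mean of 13 and 17.7 counts in all-capped libraries, were in the high class, at 69.8% ± 13.3 and 95.8% ± 66.7.

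Of the lists of nuclear genes, signalling genes had the highest median. Of 31 genes of insulin and growth factor signalling, 0 fell in the low class, 4 in the middle class and 25 in the high class, and 2 were not separated. The median was 69.4% ± 15 (SD, n = 3), and edgeR called 28 higher and 0 lower with TMM scaling, and 1 higher and 7 lower with scaling to the fly genes. Of the 31, 10 reached the minimum level in captured libraries only, among them Irs1. All 10 are in the high class and called higher, the side that such selection favours. The other 21 reached the minimum level in both kinds of library. The insulin receptor, Insr, had 3.28, 2.19 and 1.70 CPM in all-capped and 27.4, 26.6 and 10.8 CPM in captured libraries, without overlap (log2 fold change 2.50, standard error 0.40, edgeR adjusted p = 3.02e-04), but its fold change was -0.24, with an adjusted p of 0.701, when scaled to the fly genes. Its estimates were 104, 83.8 and 29.6%. All 3 share 1 all-capped mean, and Insr was lowest in replicate 3 of the all-capped libraries too. Over all tested genes, same-numbered libraries deviated together from their group means, with correlations of 0.403, 0.120 and 0.353 for numbers 1, 2 and 3. With these libraries treated as pairs, the log2 fold change of Insr was 2.46 (edgeR adjusted p = 4.90e-06). How much of the spread of Insr itself they share was not tested. Downstream, Akt1 had 69.7% ± 4.99, the kinase Mtor 58.8% ± 13.8 and Irs2 74.0% ± 5.20. The adaptor Irs1 stood at 0.583, 0.616 and 0.370 CPM in all-capped libraries, and its estimates were 263, 91.5 and 75.9%. Gsk3b, whose annotated start is an A, had 29.5, 23.9 and 12.6 CPM in all-capped and 489.7, 325 and 181 CPM in captured libraries. Among the members in the middle class were the growth hormone receptor Ghr at 10.3% ± 4.77, Egfr at 15.5% ± 3.25 and Hras at 16.3% ± 2.93. With at least 10 counts in every library required, 18 of these genes were higher.

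Transcription factors spread from the low to the high class. Of 47 nuclear receptors and liver transcription factors, 4 fell in the low class, 8 in the middle class and 21 in the high class, and 14 were not separated. The median was 25.9% ± 7.66 (SD, n = 3), and edgeR called 25 higher and 8 lower with TMM scaling, and 1 higher and 33 lower with scaling to the fly genes. Of these factors 5 reached the minimum level in captured libraries only, 3 of them in the high class. Hnf4a, which maintains hepatocyte identity, had 21.2, 27.1 and 25.6 CPM in all-capped and 300.1, 417 and 411 CPM in captured libraries, without overlap (log2 fold change 3.26, standard error 0.20, edgeR adjusted p = 5.75e-07); scaled to the fly genes its fold change was 0.46 with an adjusted p of 0.0527. Its estimates were 110.4, 128 and 117%. Tcf7l2, an effector of Wnt signalling, and Foxo3, a target of insulin signalling, were as high, at 122% ± 18.1 and 122% ± 42.6. The 3 FOXA factors differed, with Foxa3 at 79.9% ± 34.6, Foxa1 at 30.4% ± 7.69 and Foxa2 at 9.24% ± 2.65. The xenobiotic receptor Nr1i3 was the lowest, at -0.948% ± 0.714, followed by Cebpd at -0.403% ± 0.211 and Atf4 at -0.209% ± 0.631, while Cebpa reached 38.9% ± 3.10.

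**Figure D4:**
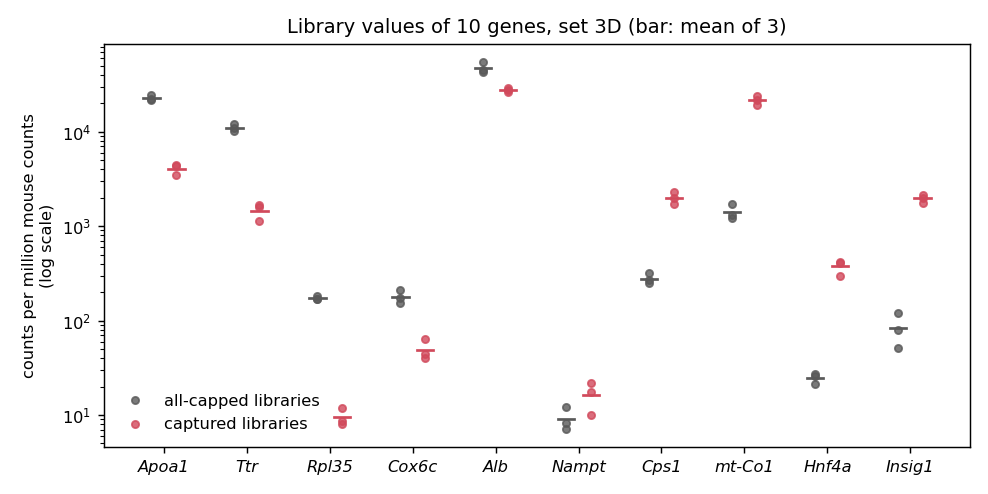
Counts per 1000000 mouse counts (y axis, log scale) of 10 genes (x axis) in the 3 all-capped (grey) and 3 captured (red) libraries, with a bar at each mean. From left to right the order of the groups turns from all-capped above captured, as for Apoa1, to captured above all-capped, as for Insig1; the groups overlap for Nampt.

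The clock and the immediate early genes, both made of short-lived transcripts, differed within each group. Of 17 core clock genes, 3 fell in the low class, 3 in the middle class and 8 in the high class, and 3 were not separated, with a median of 33.9% ± 6.62 (SD, n = 3). Of these, 2 reached the minimum level in captured libraries only, both in the high class. The output factor Dbp had 309, 406 and 334 CPM in all-capped and 73.6, 106 and 82.0 CPM in captured libraries, a low estimate of 0.226% ± 0.938, and Ciart and Nr1d1 were low as well, at 0.491% ± 0.486 and 2.23% ± 1.93. The period genes were high, with Per1 at 55.4% ± 13.6, Per2 at 42.9% ± 10.2 and Per3 at 119% ± 44.7. By edgeR 11 clock genes were higher and 3 lower, while scaled to the fly genes 0 were higher and 12 lower; without all-capped replicate 2 the count of 11 was 7. Of 18 immediate early genes, 4 fell in the low class, 0 in the middle class and 4 in the high class, and 10 were not separated, with a median of 8.28% ± 1.19, and 3 reached the minimum level in captured libraries only, 2 of them in the high class. Zfp36 and Ier2 were low, at 1.59% ± 2.32 and 1.51% ± 1.18, and Jund and Klf4 high, at 78.4% ± 19.8 and 116% ± 18.4. Fos and Egr1 varied too much to be placed, at 15.6, 3.15 and -1.58% and 23.6, 39.4 and 4.41%. By edgeR 5 immediate early genes were higher and 3 lower, the second count being 6 with same-numbered libraries treated as pairs, and 13 were higher and 0 lower when scaled to the 0% spike-in. The count of 5 was 2 without all-capped replicate 3 and 3 without all-capped replicate 2 or captured replicate 2, and the count of 3 lower genes was 5 without all-capped replicate 3 or captured replicate 2.

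Long noncoding RNAs lay at both ends. Of 5 nuclear ones tested, 0 fell in the low class, 0 in the middle class and 2 in the high class, and 3 were not separated, with a median of 33.2% ± 35.7; edgeR called 2 higher and 0 lower with TMM scaling, and 0 higher and 2 lower with scaling to the fly genes. Neat1, the scaffold of paraspeckles, had 4.81, 8.28 and 2.74 CPM in all-capped and 77.4, 150.3 and 69.3 CPM in captured libraries, without overlap (log2 fold change 3.55, standard error 0.40, edgeR adjusted p = 2.73e-05); scaled to the fly genes its fold change was 0.79 with an adjusted p of 0.0953. Its estimates were 133, 217 and 91.3%. Malat1, of nuclear speckles, had 39.2, 11 and 3.18 CPM in all-capped and 20.4, 7.85 and 4.31 CPM in captured libraries, a spread within each group wider than the difference between them. Without all-capped replicate 1, where Malat1 was highest, its mean estimate was 12.5% in place of 3.44%. Kcnq1ot1, which silences an imprinted domain, was high, at 133% ± 56.9. It reached the minimum level for testing in captured libraries only, which favours a high estimate. Genes that host small nucleolar RNAs in their introns were low: of 11 tested, 8 fell in the low class, 0 in the middle class and 0 in the high class, and 3 were not separated, with a median of -0.103% ± 1.42 (SD, n = 3). Of the 11, 6 reached the minimum level in all-capped libraries only, which favours a low estimate. Gas5 and Snhg8 had -0.756% ± 1.25 and -0.887% ± 0.564. Of these genes, edgeR called 0 higher and 8 lower with TMM scaling, and 3 higher and 0 lower with scaling to the 0% spike-in.

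Among the 2026 abundant named genes, those with a mean of at least 500 counts in all-capped libraries, the 6 highest estimates belonged to Tacc1 at 245% ± 118, Slc39a1 at 241% ± 100.5, Amt at 240.1% ± 115, Txnl4b at 230.3% ± 55.6, Tspan12 at 204% ± 97.9 and Cdv3 at 202% ± 103 (SD, n = 3). Slc39a1, a zinc importer, had 100.2, 153 and 94.1 CPM in all-capped and 4490.5, 3197 and 2629 CPM in captured libraries. Amt, of the glycine cleavage system like Gldc, had 33.0, 47.5 and 26.3 CPM in all-capped and 1435, 982 and 726 CPM in captured libraries. In each of the 6 genes the estimate was over 100% in all 3 captured libraries and highest in captured replicate 1. The 6 lowest were 5 ribosomal protein genes, Rpl23a, Rpl35, Rps27, Rpl22l1 and Rps21, and Hamp2. Hamp2, a close relative of the iron hormone hepcidin, had 143, 129 and 305 CPM in all-capped and 10.4, 5.00 and 19.1 CPM in captured libraries.

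Length and level of the gene went with the estimate. Sorted into 10 equal groups by gene span, the distance from first to last annotated base, the median estimate was 1.64% in the group of shortest genes, 10.3% in the fifth group and 40.3% in that of the longest. The low, middle and high classes had median spans of 7588, 19264 and 46238 bases. Sorted by level in all-capped libraries, the median estimate was 20.6% in the third of 10 groups from the bottom and 2.66% in the highest. The lowest group, with a median of 83.2%, lay wholly below the minimum level of 0.883 CPM in its all-capped mean, so its genes could pass mainly by being high in captured libraries, and nothing is read from it. Across genes, which are not independent replicates, Spearman's rho was 0.516 for span (n = 10584) and -0.542 for level (n = 10814). The level is also the denominator of the estimate, so part of that relation is built in, and its rho includes the genes that passed through captured libraries only. With levels and spans each split into 3 equal groups, which remain wide, the span order was seen within the upper levels. At the highest level the median was 2.61% for short, 6.18% for medium and 10.5% for long genes; at the middle level it was 5.02, 12.7 and 23.6%. The spans are those of RefSeq genes and include introns, so they are not transcript lengths.

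**Figure D5:**
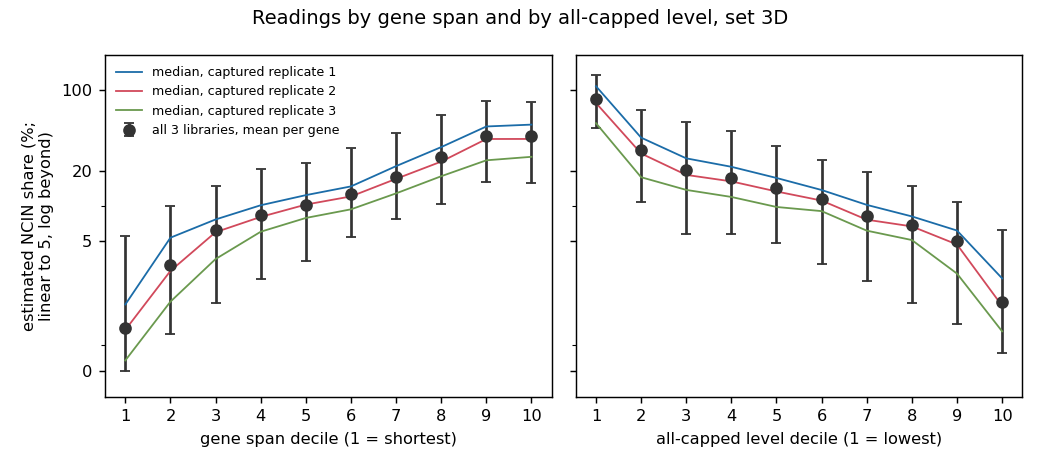
Median estimated NCIN share (y axis, percent, linear to 5 and logarithmic beyond) in 10 equal groups of tested genes by gene span (left) and by level in all-capped libraries (right). Points are medians of the per-gene means with bars from the first to the third quartile, and lines are the 3 captured libraries; medians rise from 1.64 to 40.3% with span and fall from 83.2 to 2.66% with level, where the lowest group is set by the minimum level for testing.

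Gene lists were then set against genes of like span. Of the insulin and growth factor signalling genes, 26 of 31 lay above the median of their own span group, as did 33 of 47 transcription factors, 12 of 17 clock genes and 13 of 18 immediate early genes. On the other side were 3 of 29 genes of fatty acid oxidation, 3 of 24 of glucose metabolism, 5 of 41 cytochromes P450 and 8 of 84 ribosomal proteins. Lipid synthesis, with 19 of 37, and the cap-related enzymes, with 16 of 28, lay between. These counts describe the lists and were not tested. They include members that reached the minimum level in captured libraries only, which favours a high estimate. Such members were 10 signalling genes, 5 transcription factors, 2 clock genes, 3 immediate early genes and 6 cap-related enzymes. In all-capped libraries only, 2 cytochromes P450 and 2 ribosomal proteins reached it. Level, the denominator of the estimate, was not matched.

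Markers of other liver cells were checked in the same libraries. In bulk RNA, fewer cells of a type and less RNA per cell cannot be told apart. All 12 Kupffer cell and macrophage markers were tested, with 8 in the low class and a median of 1.88% ± 1.11 (SD, n = 3), and their summed level was 639.8 to 731 CPM in all-capped and 246 to 332 CPM in captured libraries. Of 12 such genes, 0 lay above the median of their span group. Of 5 erythroid markers, 5 were low, with a median of -0.702% ± 0.677 and sums of 402 to 497 and 104 to 146 CPM. The 7 lymphocyte markers had 0.679% ± 1.05, with sums of 33.3 to 43.3 and 7.66 to 20.2 CPM, and the 6 cholangiocyte markers 5.63% ± 1.02, with sums of 22.8 to 34.9 and 15.5 to 31.9 CPM. Stellate cell markers, 11 tested, had 8.45% ± 3.61 and sums of 414 to 528 and 196 to 238 CPM. In all-capped libraries only, 4 lymphocyte, 1 erythroid and 1 cholangiocyte marker reached the minimum level, which favours low estimates. In captured libraries only, 1 cholangiocyte and 1 stellate cell marker reached it. Sinusoidal endothelial markers went the other way as a sum, at 629.6 to 889 CPM in all-capped and 6791 to 8166 CPM in captured libraries. That sum rested on 1 gene, the nuclease Dnase1l3, with 391, 623 and 454 CPM in all-capped and 6583, 7871 and 7105 CPM in captured libraries; of the 12 markers, 2 were in the low class, 3 in the middle and 3 in the high class, and 4 were not separated, with a median of 10.3% ± 2.50. The lowest were Clec4g and Oit3, at 0.627% ± 1.04 and 2.50% ± 0.894. No tested marker was at 0 in the all-capped libraries. The part of these cell types in the results above was not tested.

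The classes of set 3D were looked up in the other libraries from mice aged 2 months, set 3C and the young mice of the age experiment, each read on the line of its own spike-ins. Those sets counted fewer NAD spike-in shares, and whether they share RNA with set 3D is not stated. The low class had a median of 2.72% ± 1.05 in set 3C and 3.83% ± 0.282 in the young mice (SD, n = 3). For the middle class the medians were 20.1% ± 3.30 and 18.2% ± 1.11, and for the high class 81.4% ± 5.52 and 82.8% ± 14.9. The order of the classes was thus the same in sets that had no part in forming them. Of the high genes of set 3D, 94.8% were high in set 3C, which was 63.2% of the high genes there, and of the low genes 57.2% were low in set 3C, which was 89.9% of the low genes there. The middle class overlapped less, at 27.0% of set 3D and 23.7% of set 3C. Just 2 low genes of set 3D were high in set 3C and 0 high genes were low there; in the young mice these counts were 14 and 1.

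Single genes kept their place between sets to different degrees. Cps1 had 55.1% ± 2.18 in set 3D, 84.2% ± 19.3 in set 3C and 105% ± 9.10 in the young mice (SD, n = 3). Hnf4a had 118% ± 8.96 in set 3D, 132% ± 23 in set 3C and 135% ± 19.7 in the young mice. Apoa1, a low gene, had -0.334% ± 0.734 in set 3D, 1.45% ± 1.28 in set 3C and 0.707% ± 0.316 in the young mice. Others moved further. Cyp2e1 had 2.67% ± 0.26 in set 3D, 4.03% ± 1.98 in set 3C and 20.3% ± 1.33 in the young mice. Alb had 2.91% ± 1.20, 3.77% ± 1.16 and 10.7% ± 1.31 in the same order. Neat1 had 147% ± 63.8, 37.6% ± 16.9 and 86.8% ± 53.6. The differences between these means were not tested, since each set has its own line. What was tested is whether the captured effect itself differed between sets 3D and 3C, by an interaction term in edgeR over 12 libraries. Of 12164 genes, 73 (0.6%) differed, 23 with a more positive and 50 with a more negative effect in set 3D. Both counts moved with most single libraries: without set 3C all-capped replicate 2 they were 0 and 2, without set 3C captured replicate 1 they were 118 and 88, and without set 3D captured replicate 3 they were 85 and 130. With same-numbered libraries treated as pairs, they were 290 and 399.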

How the data were processed

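Liver libraries that captured all capped or only NCIN-capped RNA were grouped by their labels. The values the authors deposited are raw counts (whole numbers) of mouse genes, fly genes and spike-ins. The submitters' processing notes list Trim Galore 0.6.6, STAR 2.7.6a, featureCounts 2.0.1 and Salmon, and the builds GRCm39 and BDGP6; strand use is not given in the sources used here. No column was left unmapped. Gene symbols matched for 10801 of 10822 tested genes.

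Library sizes and tests used mouse genes alone. Genes passing filterByExpr (0.883 CPM in 3 libraries) entered edgeR 4.0.16 (R 4.3.3) and its quasi-likelihood test, with TMM factors, only the 6 libraries of set 3D, no block, and Benjamini-Hochberg adjustment at 0.05. The difference from set 3C was fitted over 12 libraries. DESeq2 1.42.0, other scalings, filters and lines, and leaving out each library were alternatives; tests were first run on simulated counts. Estimated NCIN shares were (ratio - intercept) / slope on the line of the same captured library, computed with Python 3.11.15. Levels in CPM are per 1000000 mouse counts and carry no TMM factors. Statements on overlap of CPM values thus follow another scaling than the edgeR calls. The median log2 fold change was 0.78 with library size only and 0.11 with TMM. Depths of 6964907 to 14608070 mouse counts set the precision, though without molecular identifiers a read need not be a separate molecule.

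Same-numbered libraries deviated together from their group means, with correlations of 0.403, 0.120 and 0.353. The numbers, from the labels, were treated as pairing them in alternatives only. The main calls and estimates did not use this pairing. The chi-square per degree of freedom between replicates was 15.3 to 52.3, so none agreed within sampling noise. Members and gene lists were chosen with earlier results of these data known. Named genes were a fixed list, the 2 highest and 2 lowest of each list with at least 100 all-capped counts, and the 6 highest and lowest and the nearest to 5 and 20% among abundant genes; other list members are named to show the group and were chosen after their values were seen. A few members of the lists are counted but not reported by name here.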

Additional observations from a re-analysis of the deposited data

Results flagged for a closer look

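The 145 genes named by rule were screened for a captured effect that differed between set 3D and set 3C by the interaction term of edgeR over the 12 libraries of both sets, and 4 differed, beside 73 of 12164 (0.6%) over all genes. Of the 4, mt-Rnr1, Btg2 and Rps25 were named for a high and Rps21 for a low estimate in set 3D, so each difference runs the way that choice favours, and the 4 are a description rather than independent evidence of a difference. All values are differences of log2 fold changes, set 3D minus set 3C, with adjusted p-values over 12164 genes. Each of the 4 calls was lost under several of the 15 alternatives run, and no explanation was tested.

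The largest difference was in Rps25, a protein of the small ribosomal subunit, at 2.79 (standard error 0.47, adjusted p = 0.0179, edgeR). It was called in 8 of 15 alternatives, with adjusted p from 1.03e-06 to 0.0765 and differences from 2.40 to 3.40. Its estimated NCIN share was 13.4% ± 9.28 in set 3D and 0.609% ± 1.48 in set 3C (SD, n = 3), and within set 3D it ran from 5.20 to 23.5%. Rps21, of the same subunit, went the opposite way, at -1.15 (standard error 0.19, adjusted p = 0.0179, edgeR), and was called in 8 of 15 alternatives, with adjusted p from 5.20e-05 to 0.0842. Its estimates lay under 0 in both sets, at -1.21% ± 0.887 and -0.757% ± 0.521.

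The mitochondrial ribosomal RNA mt-Rnr1 had a difference of 1.35 (standard error 0.27, adjusted p = 0.0331, edgeR), called in 6 of 15 alternatives, with adjusted p from 9.95e-05 to 0.115. It read 181% ± 50.4 in set 3D and 117% ± 42.5 in set 3C, which overlap within 1 SD. Btg2, an antiproliferative immediate early gene, had a difference of 1.15 (standard error 0.24, adjusted p = 0.0458, edgeR), called in 5 of 15 alternatives, with adjusted p from 4.83e-04 to 0.16. It read 42.2% ± 12.3 in set 3D and 29.6% ± 1.97 in set 3C.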

How the results depend on the processing

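Scaling decided the direction of fold changes. Of the tested genes, 8382 were higher and 101 lower with scaling to the 0% spike-in, 126 higher and 7935 lower with scaling to the fly genes, 1723 lower with the spike-in total and 2226 lower with library size only. Scaled to the 0% spike-in, the log2 fold change turned to 1.22 for Alb and 0.24 for Cox6c. Scaled to the fly genes, it turned to -0.11 for mt-Nd1, -0.62 for Cps1, -0.24 for Insr and -2.57 for Nampt, and Nampt ran from -0.092 (without captured replicate 1) to 0.35 when 1 library was left out. The slope of the spike-in line stayed within its spread between captured libraries under all 10 alternatives run for it. With no filter beyond 1 count, the median estimate was 6.56%, the low class held 5693 genes and 7471 were not separated; with at least 10 counts in every library the high class held 1901. Leaving out 1 library gave 2304 (without captured replicate 1) to 3861 not separated genes.

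Same-numbered libraries were treated as pairs in a replicate block. It called 4111 genes higher and 3730 lower, against 3842 and 3406, and 7198 genes were called in the same direction by both fits. With each captured library read against its same-numbered all-capped library, the slope was 0.128 and the median estimate 11.1%. The difference between sets 3D and 3C moved most: 290 genes more positive and 399 more negative with the block, 155 and 136 with DESeq2, 43 and 85 with at least 10 counts in every library. Leaving out 1 library gave 0 to 118 more positive and 1 to 130 more negative genes, the highest without set 3C captured replicate 1 and without set 3D captured replicate 3.

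The overlap of the 0 and 1% spike-ins, which had 277 to 606 captured counts, limits estimates near 0. Whether their depth accounts for the overlap was not tested. A line through the origin raised low estimates, for example from -0.275 to 1.32% for the median of ribosomal protein genes.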

Other observations

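Long noncoding RNAs and pseudogenes had lower median estimates than protein-coding genes. The 251 tested long noncoding RNAs had a median of 3.21%, with 45.8% in the low and 16.7% in the high class. The 169 pseudogenes had 0.629%, with 69.8% low, and a pseudogene may share reads with its parent gene. Protein-coding genes had 12.6% (n = 10107).

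Base composition around the start went with the estimate as well. In 3 equal groups by the share of G and C in the 300 bases around the annotated start, the highest group had a median of 25.5% (n = 2679), the middle group 11.3% (n = 2710) and the lowest group 6.38% (n = 2785). Their median spans were 29642, 20114 and 19538 bases, so composition and span move together in part. These are descriptions across genes and were not tested.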
